A study of Mus musculus with 16 samples.

Results

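The claudins *Cldn1*, *Cldn2*, *Cldn3*, *Cldn4*, *Cldn6*, *Cldn7* and *Cldn8*, the tight junction genes *Tjp1* and *Ocln*, and *Epcam* were followed in mIMCD3 cells treated with doxycycline (DOX). These 10 genes, taken by symbol and Ensembl identifier, were 10 of the 54393 genes in the table of estimated counts, and all 4 groups of libraries were used. mIMCD3 is an immortalised mouse cell line of inner medullary collecting duct origin, set up from an animal that carried an SV40 transgene, so the series describes 1 transformed line and not the native collecting duct. The genotype in the labels was wild type, and the paper's methods name no DOX-responsive transgene. Cells grown to confluence on permeable filters received vehicle (DMSO) or 2 μg/mL DOX, renewed each day, for 3 or 6 days. The 4 groups (DMSO 3D, DOX 3D, DMSO 6D and DOX 6D) held 4 libraries each, 16 in all. Nothing in the labels said that the replicates of a group came from separate cultures, so the p-values measure the spread between libraries, which may be technical.

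Tight junctions seal the space between neighbouring epithelial cells near their apical side. Claudins are the membrane proteins that form the junction strands, and the set a cell makes decides how leaky the seal is and which ions pass it. Some mainly seal, others form pores, and in the collecting duct claudin-4 and claudin-8 are known to act together in the paracellular path for chloride. The scaffold protein ZO-1, the product of *Tjp1*, ties the strands to actin. Occludin (*Ocln*) is a further membrane protein of the strands, and EpCAM (*Epcam*) is an adhesion protein that binds claudin-7 along the lateral membrane. DOX is a tetracycline antibiotic used to switch on engineered genes, which also acts on the protein synthesis of mitochondria.

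The libraries held 16933343 to 23960860 estimated counts, and 3 counts corresponded to 0.125 to 0.177 CPM (counts scaled to library size). Within groups, Spearman's rho between libraries across genes was 0.990 to 0.997. All 5 epithelial markers were present, led by *Krt18*. Of 9 markers of collecting duct principal cells, 7 (*Aqp2*, *Aqp4*, *Avpr2*, *Scnn1b*, *Scnn1g*, *Hsd11b2* and *Slc14a2*) stayed below 1 TPM (transcripts scaled to gene length and library) in every library, so the tissue label was not borne out by these defining genes. Markers of fibroblasts, endothelium and leukocytes were at most 1.11 TPM in any library, apart from *Cd68*. Some other nephron markers were present. *Slc34a1* (proximal tubule) was at 1.573 to 17.19 TPM with DMSO and at 2.043 to 8.071 TPM with DOX. *Umod* (thick ascending limb) was at 0.886 to 4.604 and 0.51 to 3.802 TPM, and *Podxl* (podocyte) at 15.49 to 19.7 and 13.54 to 23.5 TPM. Of those lists, in that order, 1 of 4, 3 of 5 and 3 of 4 markers stayed below 1 TPM in every library. The first 2 lists varied widely between libraries of the same group. The proximal tubule markers summed to 3.126 to 17.15 TPM in DMSO 3D and to 2.835 to 21.03 TPM in DMSO 6D. Those of the thick ascending limb summed to 1.398 to 4.986 and 0.943 to 6.302 TPM. Because these were bulk libraries, fewer cells of a type and less RNA per cell cannot be told apart.

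The 10 genes covered a wide range of levels. In TPM, a scale per length on which genes can be compared, *Cldn4* (264 ± 33.7 TPM in DMSO 3D, SD, n = 4) and *Cldn7* (229 ± 17.2 TPM) were the most abundant claudins, with *Epcam* beside them (206 ± 19.6 TPM). *Cldn4* was above *Cldn7* in each of the 4 DMSO 3D libraries, but the ranges of these neighbours overlapped, as did those of *Cldn7* and *Epcam*. *Cldn3* (110 ± 9.92 TPM) and *Tjp1* (46.3 ± 6.84 TPM) formed the middle of the order, followed by *Ocln* (16.5 ± 1.31 TPM) and *Cldn1* (13.3 ± 0.580 TPM). The renal claudins *Cldn8* (4.80 ± 0.795 TPM) and *Cldn2* (3.12 ± 0.843 TPM) were low, with overlapping ranges. From *Epcam* down to *Cldn8*, and from *Cldn2* to *Cldn6*, the 4 libraries of each gene lay wholly above those of the next.

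*Cldn6*, a claudin known from embryonic epithelia, was close to absent. Its estimated counts in DMSO 3D were 0, 3, 0 and 5, and in the other groups no library had more than 2. Its TPM was at most 0.217, it did not reach the filter of 1 CPM in 4 libraries, and it was therefore not tested. The other 9 genes all passed that filter.

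In DMSO 6D the order from *Cldn4* to *Cldn6* was the same as in DMSO 3D. In both DOX groups *Cldn7* came first and *Cldn4* second (180.0 ± 19.4 TPM in DOX 3D and 205 ± 21.2 TPM in DOX 6D for *Cldn4*), again with overlapping ranges. In DOX 6D *Cldn2* (1.01 ± 0.360 TPM) was above *Cldn8* (0.877 ± 0.312 TPM) in 3 of 4 libraries, the reverse of the vehicle order, and their ranges overlapped.

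**Figure D1:**
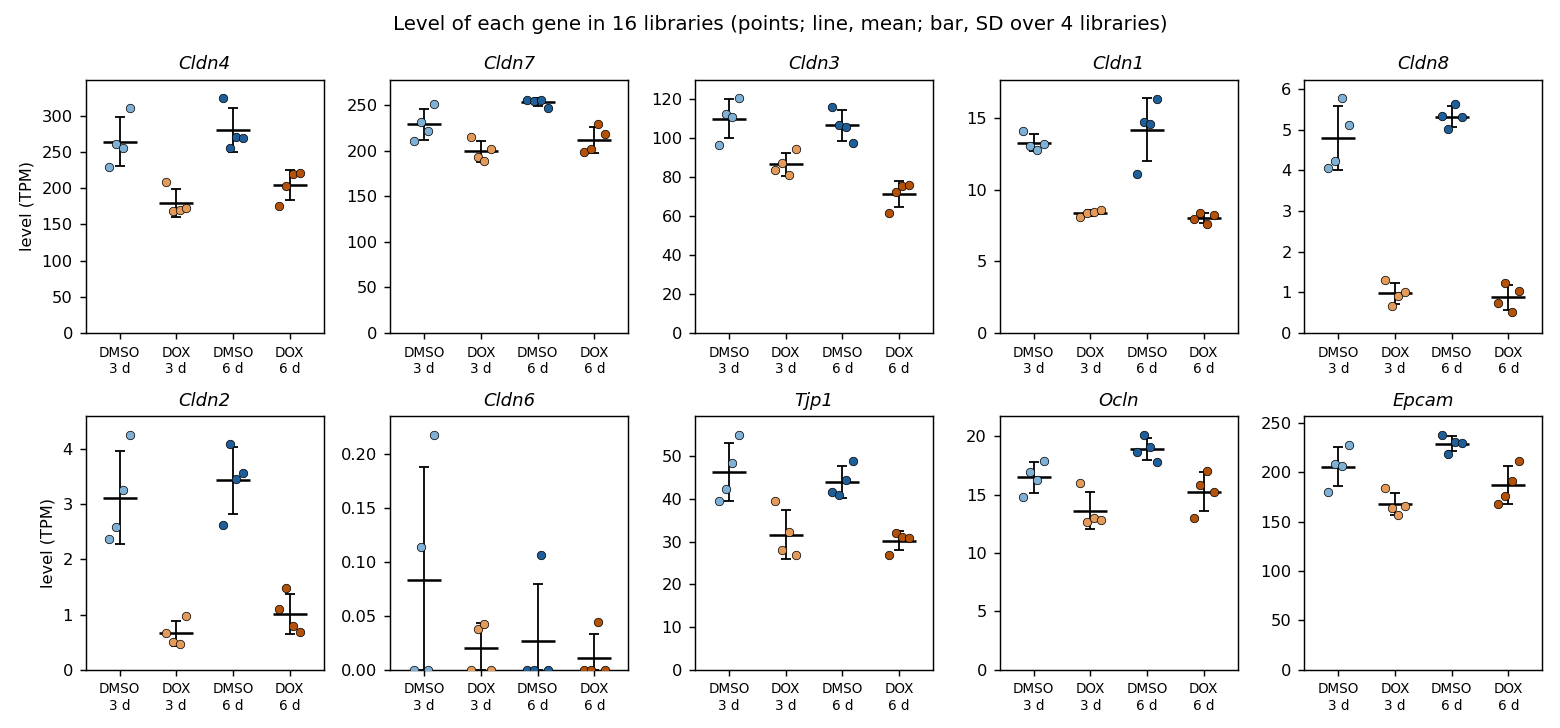
Each panel plots the level of 1 gene in TPM (vertical axis, from 0) in the 16 libraries by group; points are libraries, the line is the mean and the bar the SD over 4 libraries, cut at 0 where it would go below. The DOX libraries of *Cldn8*, *Cldn2*, *Cldn1*, *Cldn3* and *Cldn4* lie below every DMSO library. Those of *Cldn7*, *Ocln*, *Epcam* and *Tjp1* overlap the DMSO libraries at 3 days and lie below them at 6 days.

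Upstream sequences are shown for *Cldn1* and *Cldn2*, which changed at both times, and for the neighbours *Cldn3* and *Cldn4*. *Cldn3* and *Cldn4* lie on chromosome 5 on opposite strands, 39279 bases apart, with 0 annotated genes between them. RefSeq windows of the GRCm38.p6 assembly, ending before the transcript start, matched 9 of the 10 genes. The gene without a window was *Cldn8*, which also changed at both times. The search was for the GC box GGGCGG, the TATA box TATAAA, the AP-1 site TGANTCA, the Snail-type E-box CAGGTG and the grainyhead-type site AACNNGTT, on both strands. Each sequence runs 5′ to 3′ on the strand of its gene and ends nearest to the start. Capitals mark the motif matches, none of which overlap, and a match on the other strand reads as its reverse complement.
Cldn1, chr16:26371842-26372089, reverse strand: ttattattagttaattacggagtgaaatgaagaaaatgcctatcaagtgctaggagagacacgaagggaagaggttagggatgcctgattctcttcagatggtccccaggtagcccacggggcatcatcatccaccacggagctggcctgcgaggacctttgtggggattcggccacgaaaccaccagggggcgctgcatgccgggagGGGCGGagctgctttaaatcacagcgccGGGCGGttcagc
Cldn2, chrX:139800558-139800807, forward strand: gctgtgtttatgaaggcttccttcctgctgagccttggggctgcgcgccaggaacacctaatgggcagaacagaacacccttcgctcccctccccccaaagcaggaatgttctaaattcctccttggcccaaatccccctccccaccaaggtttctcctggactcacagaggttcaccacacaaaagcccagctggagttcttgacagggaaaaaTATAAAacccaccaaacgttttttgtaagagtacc
Cldn4, chr5:134946935-134947184, reverse strand: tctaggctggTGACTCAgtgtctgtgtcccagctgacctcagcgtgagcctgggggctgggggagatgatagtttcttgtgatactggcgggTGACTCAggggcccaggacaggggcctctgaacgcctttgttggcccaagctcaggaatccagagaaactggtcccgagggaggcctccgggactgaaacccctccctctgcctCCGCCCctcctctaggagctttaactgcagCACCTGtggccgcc
Cldn3, chr5:134985964-134986213, forward strand: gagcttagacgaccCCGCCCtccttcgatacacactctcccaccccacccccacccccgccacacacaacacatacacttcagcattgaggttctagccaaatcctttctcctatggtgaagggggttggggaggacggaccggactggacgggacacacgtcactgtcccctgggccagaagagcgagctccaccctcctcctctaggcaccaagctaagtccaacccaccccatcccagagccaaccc
Positions count from the RefSeq start to the first base of a match. The *Cldn1* window (248 bases) was cut at an annotated exon that begins before that start. For *Cldn2* the RefSeq start lies before the gene start given below. The *Cldn1* window held 2 GC boxes, 42 and 14 bases before the start, and that of *Cldn3* held 1, at 236. A GC box was present in 32.7% of all 32817 windows of 250 bases. The *Cldn2* window, on the X chromosome, held a TATA box 35 bases before the start, a motif in 12.4% of windows. The *Cldn4* window was the only 1 of the 4 with AP-1 sites, at 240 and 158 bases before the start, and it also held a GC box at 44 and an E-box at 14. AP-1 sites occurred in 6.75% of all windows and the E-box in 17.2%. No grainyhead-type match, present in 3.64% of windows, was found in the 4. *Epcam* had 2 E-boxes, and the *Cldn7* window had none of the motifs. These matches are letters in a window and were not tested for binding.

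Several of these genes were lower with DOX, and none was called higher. At 3 days 3 of the 9 tested genes were lower (*Cldn8*, *Cldn2* and *Cldn1*), and at 6 days 6 were lower (these and *Cldn3*, *Cldn4* and *Tjp1*). *Cldn7*, *Ocln* and *Epcam* passed the test at neither time. A gene was called when edgeR's robust quasi-likelihood test against a fold threshold of 1.2 gave a Benjamini-Hochberg adjusted p under 0.05 over all 13234 tested genes. The same rule called 12.5% of all genes at 3 days (7.22% lower and 5.3% higher) and 21.6% at 6 days (11.6% lower and 10.0% higher). The median log2 fold change of the 9 genes was -0.36 at 3 days and -0.44 at 6 days, and over all tested genes it was 0.00 at both times. In CPM the DOX and DMSO libraries did not overlap, with DOX lower, for 6 of the 9 genes at 3 days and 8 at 6 days. Over all tested genes 19.8% and 20.9% were apart in that direction.

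The ratios of group means were lower in TPM than in CPM for each of the 9 genes, and on log2(TPM + 1) the median of all genes was shifted by -0.15 at 3 days and by -0.05 at 6 days relative to the CPM scale. Except for *Cldn7* at 3 days, the mean of each of the 9 genes was lower with DOX at both times on either scale. Epithelial markers moved with the genes: summed over 5 markers they were 2180 to 2594 TPM in the DMSO libraries and 1465 to 1734 TPM in the DOX libraries. This sum includes *Epcam*. Of the 5, *Krt19* fell by 0.52 and 1.09 on the log2 scale at 3 and 6 days (adjusted p = 0.00178 and 8.99e-10) and *Krt8* fell by 0.48 and 0.75 (adjusted p = 0.00562 and 6.65e-07). *Cdh1* was called at 3 days (-0.47, adjusted p = 0.00883) and not at 6 days (-0.21, adjusted p = 0.939), *Krt18* at 6 days (-0.41, adjusted p = 0.0342) and not at 3 days (-0.18, adjusted p = 1.0), and *Epcam* at neither. Of the 2 principal cell markers tested, *Scnn1a*, a subunit of the epithelial sodium channel, had log2 fold changes of -1.05 and -1.48 (adjusted p = 8.96e-06 and 2.13e-08). The other, *Hsd11b2*, was called at 6 days (-1.44, adjusted p = 0.0123) and not at 3 days (-0.99, adjusted p = 0.136). *Slc26a4*, the 1 intercalated cell marker tested, was called at 3 days (-1.01, adjusted p = 0.00635) and not at 6 days (-0.46, adjusted p = 0.273). *Cd68*, from the leukocyte list, was 17.0 to 24.4 TPM with DMSO and 7.76 to 12.5 TPM with DOX, while *Ptprc*, *Lyz2* and *Cd3e* stayed below 1 TPM. The part of these shifts in the junction gene results was not tested.

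**Figure D2:**
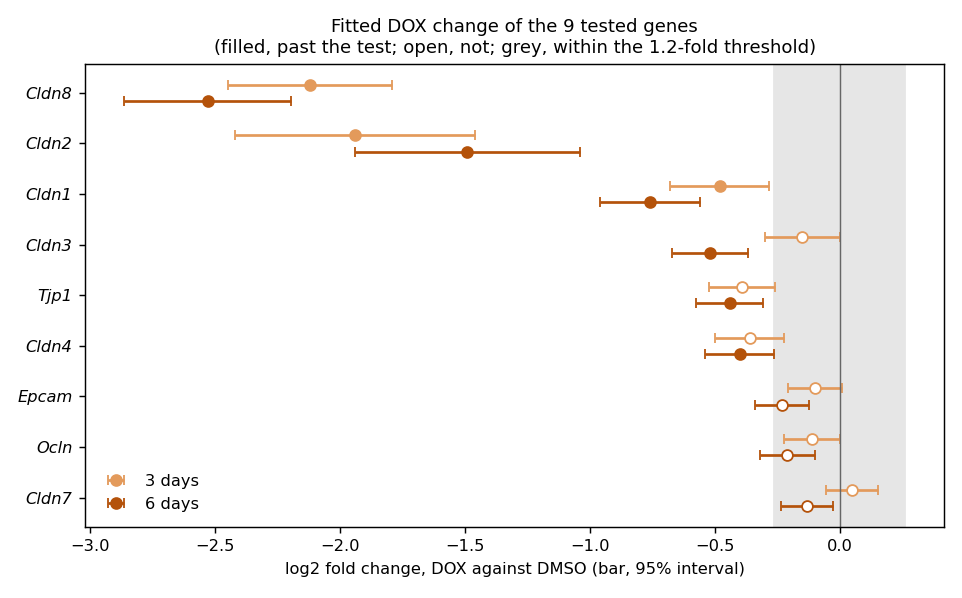
The horizontal axis is the fitted log2 fold change of DOX against DMSO for the 9 tested genes at 3 days (light) and 6 days (dark), with bars of the 95% interval; filled points passed the test and the grey band marks changes within the fold threshold of 1.2. *Cldn8* and *Cldn2* lie between -2.53 and -1.49, and the other genes between -0.76 and 0.05.

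*Cldn8*, the partner of claudin-4 in the collecting duct (ENSMUSG00000050520, chromosome 16 from 88560828 to 88563183, a gene of 1 exon), showed the largest fall. Its level was 4.07, 4.23, 5.77 and 5.12 TPM in DMSO 3D and 1.30, 0.676, 0.915 and 1.01 TPM in DOX 3D. At 6 days it was 5.34, 5.01, 5.64 and 5.31 TPM with DMSO and 0.727, 1.22, 0.524 and 1.03 TPM with DOX. Every DOX library was below every DMSO library at both times. The log2 fold change was -2.12 ± 0.168 (SE) at 3 days (adjusted p = 1.85e-08) and -2.53 ± 0.170 at 6 days (adjusted p = 4.06e-10), which left 23.0% and 17.3% of the vehicle level. Only 11 of the 13234 tested genes had a lower log2 fold change at 3 days, and 40 at 6 days. These values rest on 21 to 56 estimated counts in the DOX libraries and 141 to 210 in the DMSO libraries.

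*Cldn2*, which forms a pore for cations and water and is best known from the proximal tubule and thin descending limb (ENSMUSG00000047230, chromosome X from 139800828 to 139811386), fell nearly as far. It was at 2.38, 2.59, 3.25 and 4.25 TPM in DMSO 3D and at 0.667, 0.511, 0.475 and 0.978 TPM in DOX 3D. The 6-day libraries had 2.63, 4.09, 3.46 and 3.56 TPM with DMSO and 1.10, 1.48, 0.784 and 0.683 TPM with DOX. The groups did not overlap at either time. The log2 fold change was -1.94 ± 0.246 at 3 days (adjusted p = 2.22e-05) and -1.49 ± 0.230 at 6 days (adjusted p = 0.000112). *Cldn2* thus stood at 26.1% and then 35.7% of vehicle. The change of the DOX effect between the times, 0.45 ± 0.340, did not pass its test (adjusted p = 0.385, 95% interval -0.22 to 1.12). The counts behind these values were 20 to 90 with DOX and 94 to 178 with DMSO.

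*Cldn1*, a sealing claudin (ENSMUSG00000022512, chromosome 16 from 26356642 to 26371841), fell less. Its level was 14.1, 13.0, 12.8 and 13.2 TPM in DMSO 3D and 8.09, 8.36, 8.43 and 8.61 TPM in DOX 3D. At 6 days it was 11.1, 14.7, 14.5 and 16.3 TPM with DMSO and 7.94, 8.35, 7.59 and 8.20 TPM with DOX. In TPM the 8 DOX libraries all lay below the 8 DMSO libraries, and in CPM they were at 20.4 to 27.9 against 29.1 to 42.5. On the log2 scale *Cldn1* changed by -0.76 ± 0.102 at 6 days (adjusted p = 9.65e-05), or 59.1% of vehicle. At 3 days it was -0.48 ± 0.101, close to the limit of the test (adjusted p = 0.0471). That 3-day call was lost without DMSO 3D replicate 1 (adjusted p = 0.167) or 2 (0.0585) and without DOX 3D replicate 1 (0.113), 2 (0.0595) or 3 (0.0612), with log2 fold changes of -0.40 to -0.50.

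*Cldn3* and *Cldn4*, claudins of tight epithelia that are also receptors for a clostridial toxin, passed the test only at 6 days. *Cldn3* (ENSMUSG00000070473, chromosome 5 from 134986214 to 134987472) had 98.6, 106, 101 and 103 CPM in DMSO 3D and 79.0, 96.6, 88.8 and 105 CPM in DOX 3D. At 6 days it had 106, 99.4, 92.1 and 83.9 CPM with DMSO and 61.8, 65.4, 69.6 and 69.0 CPM with DOX. The groups overlapped in CPM at 3 days, though not in TPM, and were apart at 6 days. For *Cldn3* the log2 fold change was -0.15 ± 0.0765 at 3 days (adjusted p = 1.0, 95% interval -0.30 to 0.00) and -0.52 ± 0.0773 at 6 days (adjusted p = 0.00244), or 69.7% of vehicle. *Cldn3* shares 40 exonic bases with the antisense gene *Wbscr25*, and whether reads were kept apart by strand is not given in the sources used here.

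*Cldn4* (ENSMUSG00000047501, chromosome 5 from 134945119 to 134946934) had 363, 380, 356 and 408 CPM in DMSO 3D and 303, 289, 285 and 294 CPM in DOX 3D. At 6 days it had 451, 368, 365 and 360 CPM with DMSO and 271, 284, 310.4 and 306 CPM with DOX. No DOX library reached a DMSO library of its time. The log2 fold change was -0.36 ± 0.0702 at 3 days, which did not pass (adjusted p = 0.139), and -0.40 ± 0.0701 at 6 days (adjusted p = 0.0443), or 76.0% of vehicle. DMSO 6D replicate 1 was far above its group, and without it the 6-day change was -0.31 (adjusted p = 0.222). The 6-day call was also lost without DOX 6D replicate 1 (adjusted p = 0.123) or 2 (0.0921).

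*Cldn7* (ENSMUSG00000018569, chromosome 11 from 69964779 to 69967885) and its binding partner *Epcam* (ENSMUSG00000045394, chromosome 17 from 87635979 to 87651129) did not pass the test against the fold threshold at either time. *Cldn7* ranged from 194 to 206 CPM in DMSO 3D and from 192 to 220.5 CPM in DOX 3D, and from 197 to 217 CPM in DMSO 6D and from 180.1 to 201 CPM in DOX 6D. These CPM ranges overlapped at both times. In TPM the *Cldn7* groups overlapped at 3 days but were apart at 6 days, at 246.4 to 255.7 TPM with DMSO and 198.6 to 229.4 TPM with DOX. *Cldn7* had a log2 fold change of 0.05 ± 0.0536 at 3 days (95% interval -0.06 to 0.15) and -0.13 ± 0.0536 at 6 days (-0.23 to -0.02), with adjusted p = 1.0 at each. On log2(TPM + 1) the 3-day value of *Cldn7* was -0.20, where the median of all genes was shifted by -0.15. *Epcam* had a log2 fold change of -0.10 ± 0.0555 at 3 days and -0.23 ± 0.0555 at 6 days (adjusted p = 1.0 and 0.89), and its 6-day CPM was 290.1 to 312 with DMSO and 236 to 280.4 with DOX. Without a fold threshold the same test called *Epcam* lower at 6 days (adjusted p = 0.00191). The 95% interval for *Epcam* at 6 days was -0.33 to -0.12, around an estimate of 85.5% of vehicle, and lay above the interval for *Cldn1* (-0.96 to -0.56). The ratio of *Cldn7* to *Epcam*, from their TPM, stayed between 1.03 and 1.21 in the 16 libraries.

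*Tjp1*, the gene for ZO-1 (ENSMUSG00000030516, chromosome 7 from 65296165 to 65527781), was lower with DOX at both times and passed the test at 6 days. It had 250, 239, 251 and 267 CPM in DMSO 3D and 226, 177, 183 and 181 CPM in DOX 3D. At 6 days it had 219, 222, 226 and 250 CPM with DMSO and 165, 168, 174 and 166 CPM with DOX. The groups were apart in CPM at both times and overlapped in TPM at 3 days. In CPM DOX 3D replicate 1 lay far above the other 3 libraries of its group. In TPM it was also the highest, at 39.57 TPM against 26.81 to 32.21 TPM. For *Tjp1* the log2 fold change was -0.44 ± 0.0679 at 6 days (adjusted p = 0.0102), or 73.5% of vehicle, and -0.39 ± 0.0677 at 3 days (adjusted p = 0.0642). Without DOX 3D replicate 1 the 3-day value was -0.48 and passed (adjusted p = 0.000683), and it also passed without DMSO 3D replicate 2 (-0.43, adjusted p = 0.0461).

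*Ocln* (ENSMUSG00000021638, chromosome 13 from 100496507 to 100552718) passed the test at neither time. Its CPM was 37.4 to 40.9 in DMSO 3D and 35.4 to 37.1 in DOX 3D, and 39.4 to 42.6 in DMSO 6D and 33.8 to 38.9 in DOX 6D. The CPM ranges did not overlap, whereas in TPM they did at 3 days. *Ocln* had a log2 fold change of -0.11 ± 0.0568 at 3 days and -0.21 ± 0.0565 at 6 days (adjusted p = 1.0 at each), the second with a 95% interval of -0.32 to -0.10. It was called lower at 6 days where no fold threshold was set (adjusted p = 0.00439).

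The log2 differences of the 9 genes between DMSO 6D and DMSO 3D ran only from -0.14 (*Tjp1*) to 0.10 (*Cldn8*, *Epcam*). In this vehicle comparison edgeR called 0 of the 9 genes and 0.0% of all genes, and DESeq2 and limma also called 0 of the 9. In edgeR's test against the fold threshold 0 of the 9 had an unadjusted p under 0.05, and 172 of all tested genes had. Without a fold threshold 62 of all genes were called, and none of the 9. The *Epcam* libraries of the vehicle groups did not overlap in CPM, at 268.4 to 285.8 in DMSO 3D and 290.1 to 312.0 in DMSO 6D. With DOX, 1 gene of the 9 was lower at 6 days than at 3 days, *Cldn3*, with a log2 difference of -0.47 ± 0.0774 (adjusted p = 0.0391), where 3.94% of all genes were called. The call was lost on leaving out DOX 3D replicate 2, 3 or 4 or any DOX 6D replicate (adjusted p = 0.0538 to 0.176), with log2 differences of -0.41 to -0.50. The DOX effect itself differed between the times for *Cldn3* only, by -0.37 ± 0.109 (adjusted p = 0.023), in a test without a fold threshold that called 17.0% of all genes. This call was lost without DOX 3D replicate 2 (adjusted p = 0.0538), DOX 3D replicate 4 (0.0587) or DMSO 6D replicate 2 (0.053). The same test passed for *Cldn1* without DMSO 6D replicate 1 (-0.38, adjusted p = 0.0301) and for *Cldn7* without DOX 3D replicate 1 (-0.20, adjusted p = 0.0365).

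The makeup of the claudin transcripts shifted with DOX. Summed over all 33 claudin genes, the level was 605.8 to 764.3 TPM in DMSO 3D and 503.0 to 583.2 TPM in DOX 3D, and 692.4 to 769.7 TPM in DMSO 6D and 505.6 to 619.2 TPM in DOX 6D. At each time the groups did not overlap, and the mean fell by 142.6 TPM at 3 days and fell by 147.2 TPM at 6 days. The sum was taken in TPM only. On log2(TPM + 1) the median of all genes was itself shifted by -0.15 at 3 days and by -0.05 at 6 days relative to the CPM scale. For *Cldn4*, *Cldn7* and *Cldn3* the 3-day ratios of means were 68.2%, 87.2% and 78.7% in TPM. In CPM they were 77.7%, 103.3% and 90.3%, so the size of the fall depends on the scale. *Cldn4* supplied 38.9 ± 1.16% of the sum in DMSO 3D and 33.6 ± 1.60% in DOX 3D, and 38.8 ± 2.25% in DMSO 6D and 35.7 ± 0.803% in DOX 6D. Its share was lower in each DOX library than in any DMSO library of the same time. The ratio of *Cldn4* to *Cldn7* was above 1 in all 8 DMSO libraries (1.09 to 1.24 in DMSO 3D and 1.01 to 1.27 in DMSO 6D), and was 0.857 to 0.973 in DOX 3D and 0.882 to 1.01 in DOX 6D. *Cldn3* held 16.2% of the sum in both 3-day groups, and at 6 days 14.8 ± 0.711% with DMSO against 12.4 ± 0.331% with DOX. The shares of the low claudins were also lower, *Cldn8* from 0.740 ± 0.0417% to 0.154 ± 0.0557% and *Cldn2* from 0.481 ± 0.104% to 0.180 ± 0.0728% at 6 days. These are descriptions with no test.

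Of the 26 claudin genes outside the list, 23 were below 1 TPM in every library, and only *Cldn12* and *Cldn23* were tested. *Cldn12*, a claudin without the usual PDZ-binding end, was called higher at 6 days: its log2 fold change was 0.35 ± 0.0568 at 3 days (adjusted p = 0.138) and 0.47 ± 0.0566 at 6 days (adjusted p = 0.00116). Its share of the claudin sum was 7.21 ± 0.235% in DMSO 3D and 10.3 ± 0.191% in DOX 3D, and 7.43 ± 0.978% and 12.4 ± 0.852% at 6 days, with no overlap at either time, although its TPM ranges overlapped at both. *Cldn23* differed by 0.17 and 0.11 on the log2 scale and was not called.

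**Figure D3:**
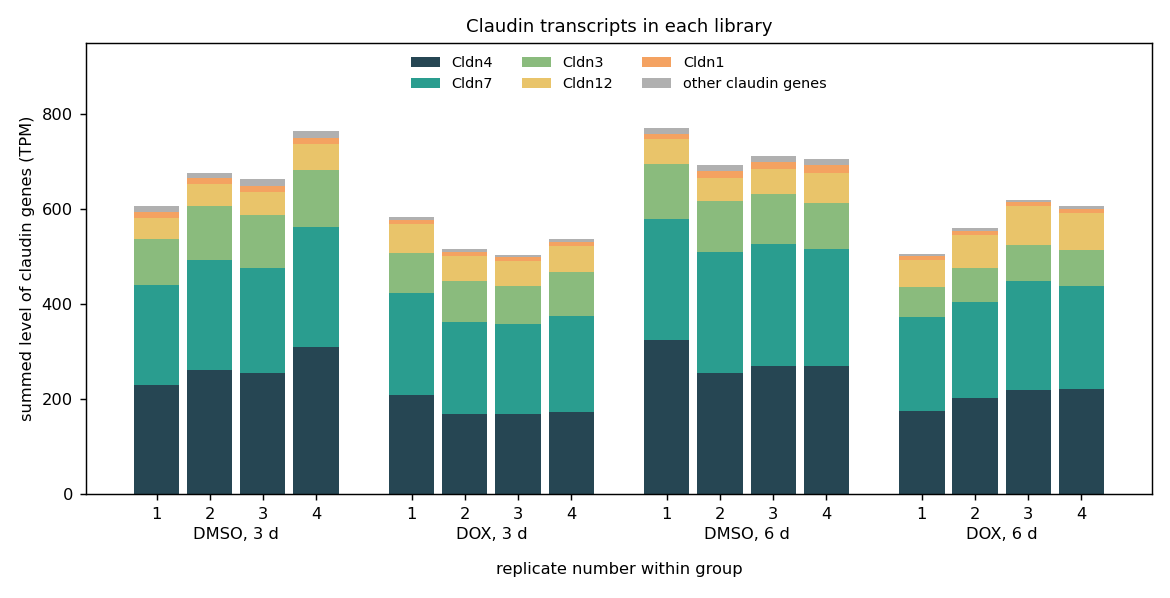
Each bar is 1 library and its height the summed level of all claudin genes in TPM, divided by gene, with the replicate number and group on the horizontal axis. The DOX bars reach 503.0 to 619.2 TPM and the DMSO bars 605.8 to 769.7 TPM, and the *Cldn12* segment is 51.8 to 83.2 TPM with DOX and 43.9 to 62.4 TPM with DMSO.

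The genes whose pattern over the 16 libraries was most like that of *Cldn8* were *Igfbp4*, *Krt4* and *Sult1d1*. Their root mean square differences from *Cldn8* in centred log2 CPM were 0.311, 0.346 and 0.354, against a median of 1.21 over all tested genes. Of the other 8 tested genes of the 10, *Cldn2* was nearest, at 0.534. The 16 points fall into the DMSO and the DOX libraries, and all 5 genes share that split. The log2 fold changes at 3 and 6 days were -1.73 and -2.23 for *Igfbp4*, -1.70 and -2.88 for *Krt4* and -1.80 and -1.93 for *Sult1d1*.

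**Figure D4:**
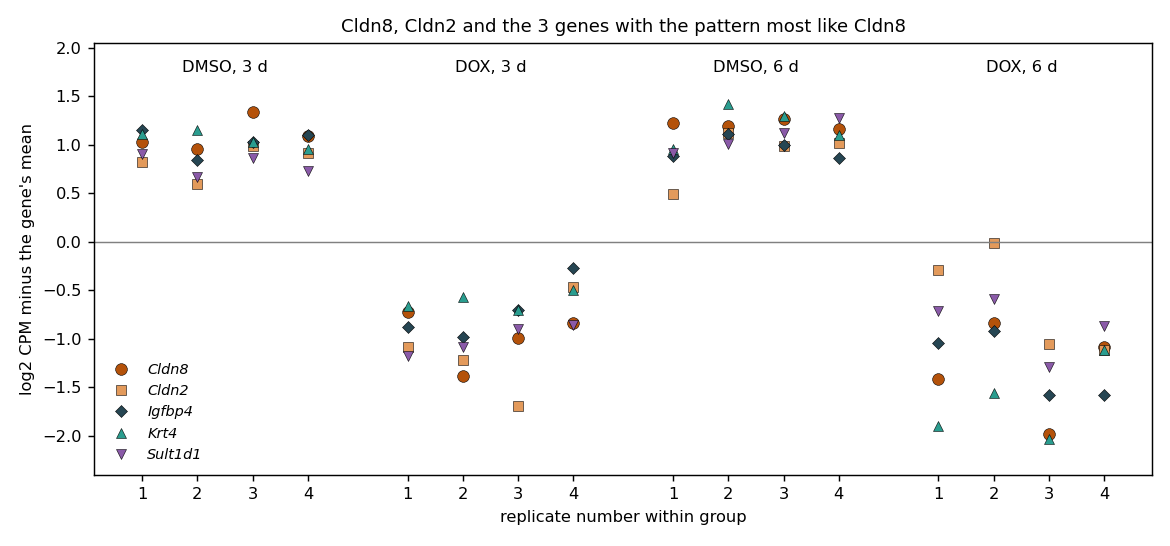
Each point is the log2 CPM of a gene in 1 library minus that gene's mean over the 16 libraries (vertical axis), by group and replicate number. All 5 genes lie above 0 in the 8 DMSO libraries and below 0 in the 8 DOX libraries, and *Cldn2* in DOX 6D replicate 2 comes closest to 0, at -0.01.

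Other junction genes were read from lists of tight junction, polarity, adherens junction, desmosome and EpCAM-associated genes and of transcription factors known to act on them, 103 names of which 66 were tested. The test called 18 of the 66 at 3 days (27.3%, of which 14 fell and 4 rose) and 24 at 6 days (36.4%, of which 16 fell and 8 rose), beside the 12.5% and 21.6% of all genes. Their median log2 fold changes were -0.21 and -0.09. With an offset for transcript length and GC content the fit called 10 lower and 6 higher at 3 days. At 6 days that fit called 15 lower and 11 higher. Over all genes 50.5% and 51.2% of the calls with the offset were higher, against 42.3% and 46.4% in the main fit. Limma on log2(TPM + 1) called 13 of the 66 at 3 days, each of them lower. At 6 days it called 8 lower and 2 higher. The 4 genes called higher at 3 days on the CPM scale were not called higher on that of TPM. The mean TPM of each of the 4 was still above vehicle at 3 days, from 109.0 to 128.0 TPM for *Arhgef2* and from 1.85 to 1.92 TPM for *Zeb2*. Both times called 17 genes, each in the same direction, 4 higher and 13 lower.

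The scaffold partners of ZO-1 are in the tight junction plaque, of which 6 of 13 genes were called at each time, 2 higher and 4 lower. *Cgn* (cingulin, which links ZO-1 to actomyosin) had log2 fold changes of -0.56 ± 0.0628 and -0.68 ± 0.0630 at 3 and 6 days (adjusted p = 0.000285 and 2.75e-06). *Magi3*, a further scaffold, had -0.46 and -0.53 (adjusted p = 0.0163 and 0.00105). In contrast *Arhgef2* (GEF-H1, a RhoA activator held at tight junctions) rose by 0.49 and 0.77 (adjusted p = 0.000835 and 3.12e-08). The membrane proteins that sit beside occludin and the claudins were called in 0 of 6 cases at 3 days and 1 of 6 at 6 days, *Ildr1*, with a log2 fold change of 0.47 (adjusted p = 0.0109).

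In the adherens junction list 4 of 8 genes were lower at 3 days and 3 of 8 at 6 days. *Cdh16* (Ksp-cadherin, the kidney-specific cadherin) had -0.83 ± 0.0787 and -0.84 ± 0.0786 (adjusted p = 2.68e-06 and 7.46e-07), and *Ctnnd1* (p120-catenin) had -0.49 and -0.59 (adjusted p = 0.0165 and 0.000829). Of 9 desmosome genes 2 were lower at both times, among them *Dsp* (desmoplakin) with -0.84 and -0.75 (adjusted p = 3.15e-05 and 7.26e-05). Of 10 polarity genes, 1 rose and 1 fell at 3 days, while 3 rose and 1 fell at 6 days. Over all genes 7.22% were called lower and 5.3% higher at 3 days, and 11.6% lower and 10.0% higher at 6 days. These lists are short, and none was tested as a set.

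Around EpCAM, 1 of 7 genes was lower at 3 days (14.3%) and 2 at 6 days (28.6%), *Tspan8* and *Cd9*. Over all genes 7.22% and 11.6% were called lower at these times, and 5.3% and 10.0% higher. *Tspan8*, a tetraspanin found in complexes with EpCAM and claudin-7, had log2 fold changes of -0.55 ± 0.0825 and -1.37 ± 0.0841 (adjusted p = 0.00319 and 3.75e-10). The test called 3 of 11 transcription factors at 3 days, 1 rising and 2 falling, and 5 at 6 days, 1 rising and 4 falling. *Elf3*, an epithelial ETS factor, had -0.64 and -0.85 (adjusted p = 8.82e-06 and 8.88e-09). *Zeb2*, a repressor of epithelial genes, rose by 0.61 and 1.28 on the CPM scale (adjusted p = 0.00176 and 3.19e-09). Its level per length was low, with means of 1.85 TPM in DMSO 3D and 1.92 TPM in DOX 3D, and 2.02 TPM in DMSO 6D and 4.13 TPM in DOX 6D.

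**Figure D5:**
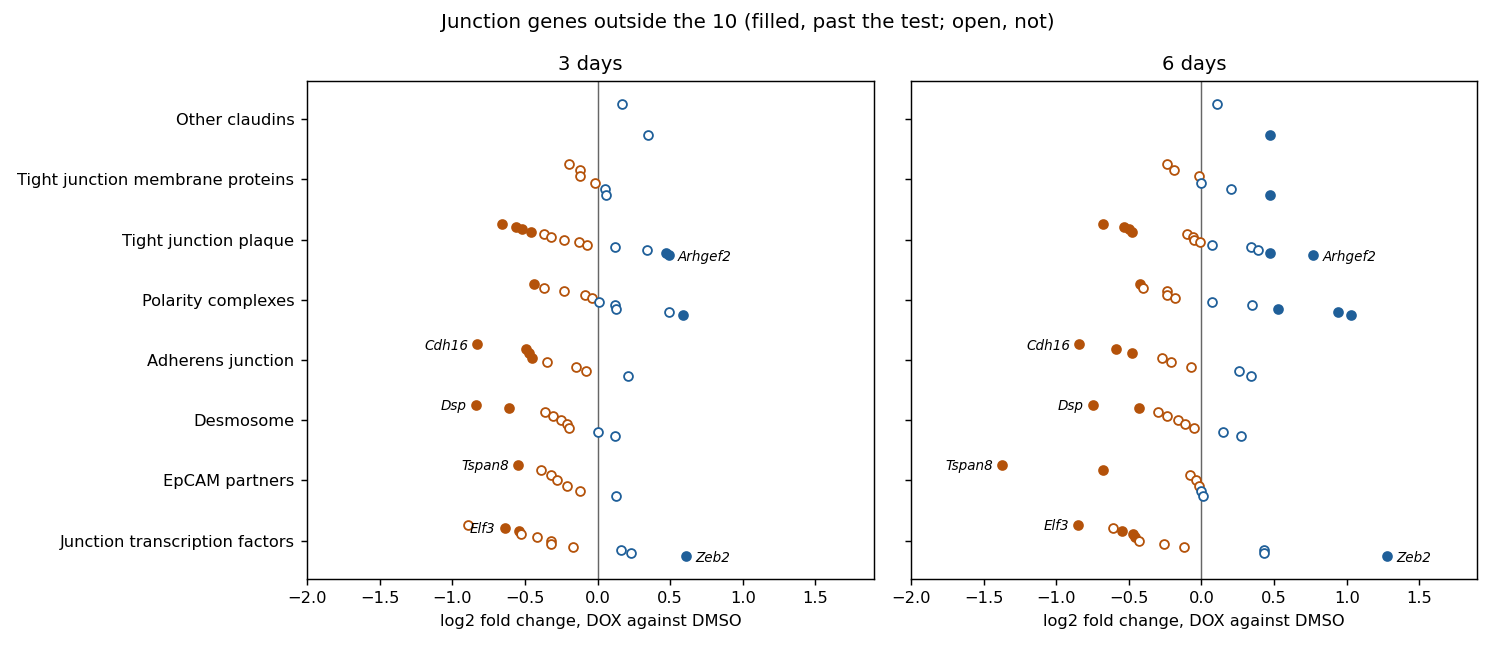
The horizontal axis is the log2 fold change of DOX against DMSO for the 66 tested genes outside the 10, by list, at 3 days (left) and 6 days (right); filled points passed the test, and 6 of the genes called at both times are named. *Tspan8* at -1.37 and *Zeb2* at 1.28 lie farthest from 0 at 6 days.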

How the data were processed

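For the 16 libraries, RNA of mIMCD3 cells on filters was selected with oligo dT and sequenced as paired ends from directional libraries. The authors aligned reads with STAR 2.6.0c to GRCm38.p6 and quantified transcripts with salmon (Salmon 0.14.10 in the submitters' processing notes). Whether salmon used strand is not given in the sources used here. The deposited estimated counts per gene were rounded to whole numbers, and the deposited TPM values were used as given for levels and shares. All 54393 identifiers matched GENCODE M21, and 1039 were absent from the TPM table.

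The 10 genes, the lists of junction genes and markers, and the tests were chosen with earlier results of these data known. The 13234 genes that reached 1 CPM in 4 or more libraries entered 1 edgeR 4.0.16 fit (R 4.3.3) of the 4 groups, with TMM factors and robust quasi-likelihood estimation. Comparisons used glmTreat, two-sided, with a fold threshold of 1.2, as in the paper's methods, and the difference between times used glmQLFTest. Adjusted p-values are Benjamini-Hochberg values over all tested genes. Standard errors, from which the 95% intervals come by a normal approximation, were taken as the log2 fold change divided by the square root of F without a threshold. The fit was tested on simulated counts.

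Named outside the 10 were at most 10 listed genes called at both times, by size at 6 days, and the 3 genes most like the most changed member called at both times. *Cldn12*, *Cldn23*, *Ildr1*, *Cd9* and single markers were named after their values were seen. A few listed genes are not reported here by name. Alternatives were DESeq2 1.42.0 and its size factors, limma 3.58.1 on log2(TPM + 1) and log2(TPM + 0.1), other filters, no fold threshold, no robust estimation, a length and GC offset, the 8 libraries of a comparison alone, the replicate number as a block, and each library left out.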

Additional observations from a re-analysis of the deposited data

Results flagged for a closer look

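In 3 of 36 combinations of gene and group, 1 library lay apart from the other 3 by Dixon's criterion, which chance meets in about 1 of 20 groups. *Cldn1* was at 22.2 CPM in DOX 3D replicate 1 and at 26.9 to 27.9 CPM in the other libraries of that group. *Tjp1* was at 226 CPM in the same library and at 177 to 183 CPM in the others, so the pair stood apart in opposite directions. *Cldn4* was at 451 CPM in DMSO 6D replicate 1 and at 360 to 368 CPM in the others. The values without these libraries are given with each gene, and why they stood apart was not tested.

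The DOX effect on *Cldn3* differed between the times, by -0.37 on the log2 scale (adjusted p = 0.023). The test had no fold threshold and called 17.0% of all genes. The call was lost with limma on log2(TPM + 1) (-0.23, adjusted p = 0.233) and with a fold threshold of 1.2 (adjusted p = 0.434). It was also lost on leaving out some single libraries, as given above.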

How the results depend on the processing

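Over 963 recomputations of the 45 single-gene values, 911 kept their side of the limit, 42 lost a call and 10 gained one. No value that was called turned its direction. *Cldn8* and *Cldn2* at both times, and *Cldn1* and *Cldn3* at 6 days, kept their calls in all 20 alternatives each. DESeq2 called 2 of the 9 genes at 3 days and 4 at 6 days. *Cldn1* at 3 days was lost in 11 of 20, among them DESeq2 (adjusted p = 0.405) and the length and GC offset (0.278), over a range of 0.000721 to 0.405. *Cldn4* at 6 days, -0.40, was lost with DESeq2 (-0.40, adjusted p = 0.26), limma on log2(TPM + 1) (-0.45, 0.232) and 4 other settings of the fit, over a range of 7.7e-05 to 0.26, and *Tjp1* at 6 days, -0.44, with DESeq2 (-0.45, adjusted p = 0.0572), no filter (-0.41, 0.0519) and limma on log2(TPM + 1) (-0.53, 0.135) or log2(TPM + 0.1) (-0.54, 0.106), over 1.44e-05 to 0.135. The causes of these losses were not tested. The uncalled *Cldn7* value at 3 days, 0.05, was -0.20 on log2(TPM + 1) and -0.04 with the length and GC offset.

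The fit without a fold threshold called 5 of the 9 genes at 3 days, 8 at 6 days (*Ocln* and *Epcam* among them), 2 between the DOX times, and 39 (3 days) and 44 (6 days) of the other junction genes. At 6 days limma called 10 of these on log2(TPM + 1) and 11 on log2(TPM + 0.1). For the difference in DOX effect 0 of the 9 genes were called with limma on either TPM scale or with a fold threshold of 1.2, and between the DOX times 0 were called with DESeq2, limma on either TPM scale, no filter or the replicate block. Leaving out each library gave 2 to 3 called genes at 3 days, 5 to 6 at 6 days, 0 to 2 for the difference in DOX effect and 0 to 1 between the DOX times, and 15 to 25 and 22 to 25 of the other junction genes.

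Same-numbered replicates did not deviate together on average (mean correlation -0.0955 at 3 days and -0.121 at 6 days). Single pairs ran from -0.175 to -0.0245 at 3 days and from -0.288 to 0.178 at 6 days. So few pairs cannot exclude a pairing, and the main fit did not use the replicate number. As a block it gave 2 and 5 called genes. Over all genes 42.3% of the calls at 3 days and 46.4% at 6 days were higher, against 12.1% and 28.8% on log2(TPM + 1), where 701 and 1307 genes were called in place of 1658 and 2856. DESeq2 called 1019 at 3 days, and the fit without a threshold 5982 and 6702. The low counts of *Cldn8* and *Cldn2* limit their precision, and those of *Cldn6* allow no statement beyond a level near the floor of 3 counts.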
